A study of Oryza sativa with 6 samples.

Results

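ADP-glucose pyrophosphorylase (AGPase) makes ADP-glucose, the glucosyl donor for starch, from glucose 1-phosphate and ATP. The rice genes for its subunits were followed in anther RNA as 6 rows of the deposited table, chosen by their annotation identifiers out of 94013 rows: 4 large subunit genes (OS05G0580000, OS01G0633100, OS03G0735000 and OS07G0243200) and 2 small subunit genes (OS09G0298200 and OS08G0345800). All 6 were found. The members were chosen by identifier and not by a rule on their levels, but with earlier results of these data known.

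Anthers of rice (Oryza sativa) were taken from 3-month-old plants between the tetrad and early microspore stages. Wild type and the dmd1 mutant were each represented by 3 libraries, which the series design describes as biological replicates. The sources used here do not give the allele, the genetic background or the number of plants behind a library, and the level of the DMD1 gene was not analysed here.

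AGPase is a heterotetramer of a pair of small and a pair of large subunits. The small subunits carry most of the catalytic activity and the large subunits mainly tune the allosteric response, in which 3-phosphoglycerate activates and inorganic phosphate inhibits the enzyme. In most plant tissues the enzyme sits in the plastid. In the endosperm of cereals a cytosolic form supplies most of the ADP-glucose. In rice the gene OS08G0345800 (AGPS2) gives alternative transcripts for a plastidial leaf form and a cytosolic endosperm form, and its single row in the table does not separate them. OS09G0298200 (AGPS1) encodes a plastidial small subunit. OS01G0633100 (AGPL2) encodes the cytosolic large subunit of endosperm. OS07G0243200 (AGPL4) is known as a large subunit needed for starch in rice pollen, which fills with starch only after the stages sampled here. OS05G0580000 and OS03G0735000 encode the other large subunits. Their numbers (AGPL1 and AGPL3) differ between naming schemes and are not used here. Symbols are from general knowledge and were not checked against an annotation.

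Values are FPKM, fragment counts divided by transcript length and by the mapped fragments of the library. The library totals ran from 808227 to 1287420 FPKM. Along the main axis of spread within genotypes, which held 58.2% of that variance over the 25474 rows tested, wild-type library 2 and dmd1 library 1 lay on one side, wild-type libraries 1 and 3 and dmd1 library 3 on the other, and dmd1 library 2 near the middle. The labels give no batch that matches this split, and results that rest on it are given with and without the libraries concerned. Tapetal genes, which mark the anther's nutritive cell layer, were abundant in wild type. The 6 listed markers summed to 34157 to 34999 FPKM in wild type and to 3330 to 8127 FPKM in dmd1. Of the 6, 4 were called lower, against 3.54% of all rows tested. TDR was not called, at 933.1 FPKM in wild type and 880.5 FPKM in dmd1 (log2 change -0.073, limma adjusted p = 0.828). C6 was also not called (limma adjusted p = 0.103). Its mean was 11532 FPKM in wild type, and dmd1 libraries 1, 2 and 3 had 2039, 360.2 and 2.39 FPKM. In whole anthers, fewer cells of a type and less RNA per cell cannot be told apart. The 4 late pollen markers summed to at most 0.304 FPKM in any library, so the libraries held almost no RNA of starch-filled pollen as far as these markers show. The part of any of these shifts in the AGPase values was not tested.

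The small subunit genes were the most abundant members in every library. OS08G0345800 stood at 35.4, 79.8 and 38.2 FPKM in wild-type libraries 1, 2 and 3. In dmd1 libraries 1, 2 and 3 it stood at 96.5, 77.9 and 89.2 FPKM. All dmd1 values were thus high, and wild-type library 2 lay among them while the other wild-type libraries were lower, so the genotypes overlapped. The means were 51.1 ± 24.9 FPKM in wild type and 87.9 ± 9.40 FPKM in dmd1 (SD, n = 3), a ratio of 1.72. The change on the log2(FPKM + 1) scale was 0.86 ± 0.31 (SE), with a 95% interval of 0.11 to 1.62, and it did not pass after adjustment over all rows tested (limma, adjusted p = 0.12, unadjusted p = 0.0311).

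For OS08G0345800, the call depended on wild-type library 2 and on how the libraries were scaled or weighted. Rows counted as called had to move by 1 log2 unit or more, up or down, and to have an adjusted p below 0.05. Without wild-type library 2 the log2 change was 1.23 and the row was called (limma adjusted p = 0.0109). Without wild-type library 2 and dmd1 library 1 together it was 1.16, also called (limma adjusted p = 0.0175). Between wild-type library 2 and dmd1 library 1, on one side of the split, the difference was 0.27 on the log2 scale, and between wild-type libraries 1 and 3 and dmd1 library 3 it was 1.26, with no test on either side. Wild-type library 2 lay 1.10 log2 units above the mean of the other wild-type libraries. The spread within genotypes was larger than in 83.9% of the 3526 rows with a mean level within a factor of 2 of this gene. Scaling the libraries to equal FPKM totals also gave a call (log2 change 1.07, limma adjusted p = 0.0168), but this scaling raised the median change of all rows by 0.17. Set against the median of all rows, the change of OS08G0345800 was 0.74 as deposited and 0.77 with equal totals. It was 0.73 when scaled by the median of ratios, which lowered the median of all rows by 0.11. With quantile normalization it was 0.89, and the log2 change of 0.94 then passed the adjusted p alone (limma adjusted p = 0.0415) without reaching the fold minimum.

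The other small subunit gene, OS09G0298200, was higher in dmd1 by a smaller factor and without overlap. Wild-type libraries 1, 2 and 3 had 40.0, 31.0 and 41.3 FPKM. In dmd1 the libraries had 47.4, 44.4 and 56.4 FPKM. Every dmd1 library was above every wild-type library, although the lowest dmd1 value and the highest wild-type value were close. The means were 37.4 ± 5.61 and 49.4 ± 6.22 FPKM (SD, n = 3), a ratio of 1.32. The log2 change of 0.40 ± 0.16 (SE) did not pass the adjusted threshold (limma adjusted p = 0.155, unadjusted p = 0.0476), and its 95% interval was 0.0057 to 0.78. The differences were of like size on the 2 sides of the library split, at 0.60 and 0.46 log2 units.

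**Figure D1:**
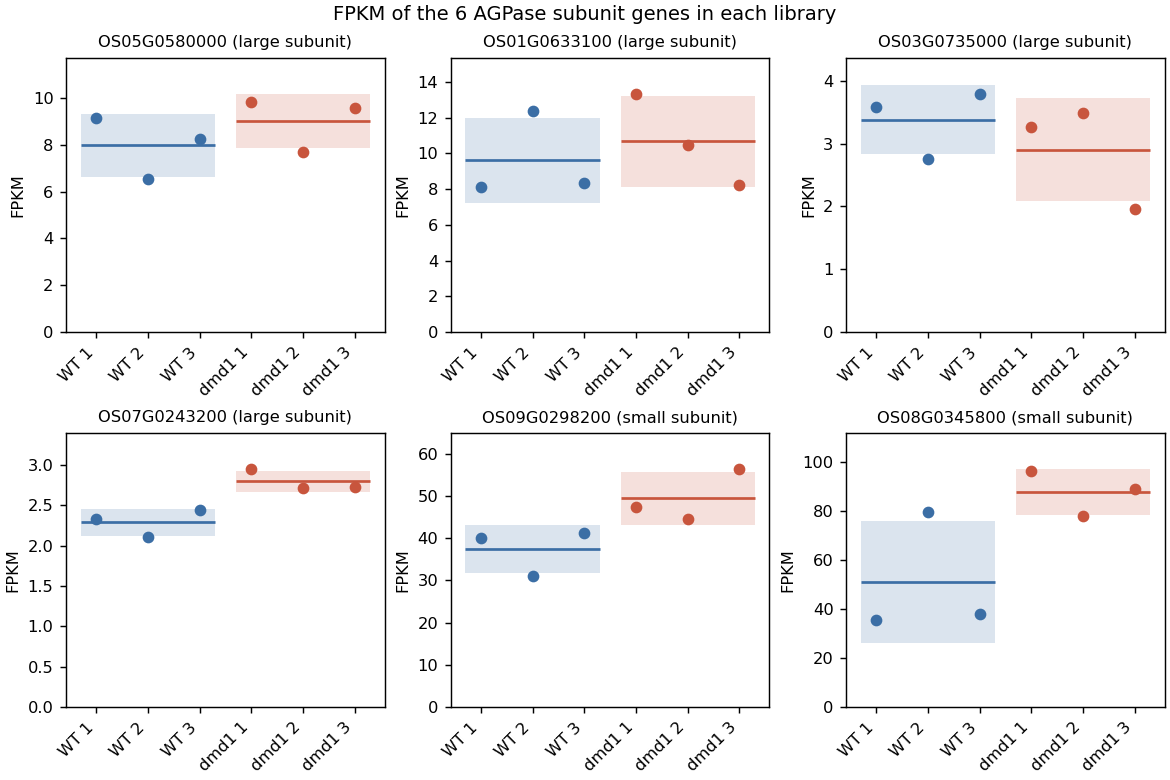
FPKM of each AGPase subunit gene in each library (vertical axes from 0, scaled per gene), for wild type (blue) and dmd1 (red). Points are libraries, lines are genotype means and bands are ± 1 SD over 3 libraries. OS07G0243200 and OS09G0298200 show no overlap between genotypes, and wild-type library 2 of OS08G0345800, at 79.8 FPKM, lies among the dmd1 values.

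The large subunit genes were all lower than the small subunit genes. OS01G0633100, the endosperm-type cytosolic large subunit gene, had 8.11, 12.4 and 8.36 FPKM across wild-type libraries 1, 2 and 3. The dmd1 libraries had 13.3, 10.5 and 8.23 FPKM. The high values were in wild-type library 2 and dmd1 library 1, that is, in both genotypes, and the genotypes overlapped. The means were 9.60 ± 2.38 and 10.7 ± 2.56 FPKM (SD, n = 3). Its log2 change, 0.14 ± 0.23 (SE), was not called (limma adjusted p = 0.719), and its sign turned without dmd1 library 1 (-0.021).

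OS05G0580000 was at 9.14, 6.53 and 8.26 FPKM in wild-type libraries 1, 2 and 3. The dmd1 libraries held 9.81, 7.70 and 9.57 FPKM. The genotypes overlapped, with the lowest value in wild-type library 2. Its log2 change was 0.16 ± 0.17 (SE, limma adjusted p = 0.553), and without wild-type library 2 and dmd1 library 1 it was -0.015. OS03G0735000 had 3.59, 2.76 and 3.79 FPKM in the wild-type libraries and 3.26, 3.48 and 1.96 FPKM in the dmd1 libraries. It was the only member with a negative log2 change, -0.18 ± 0.22 (SE, limma adjusted p = 0.611), and that value rested on dmd1 library 3, the lowest of all, without which the change was 0.0040. None of these 3 large subunit genes differed between genotypes beyond the spread between libraries. Their 95% intervals on the log2(FPKM + 1) scale reached from -0.70 to 0.69 at the widest. Changes of 1.0 unit on that scale lay outside them. At the level of OS03G0735000 the +1 shrinks changes, so a fall in its FPKM by a factor of 2 was not clearly excluded. With 0.1 added instead, its log2 change was -0.24 ± 0.28 (SE).

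OS07G0243200, the large subunit gene linked to pollen starch, was the least abundant member but also the steadiest. The wild-type libraries had 2.32, 2.11 and 2.44 FPKM and the dmd1 libraries 2.95, 2.72 and 2.73 FPKM. All dmd1 libraries were above all wild-type libraries by a small margin. Its spread within genotypes (SD of 0.063 on the log2 scale) was larger than in only 1.08% of 7743 rows of like level. The SE that limma gave is larger than this spread alone would give, since limma draws it towards that of other rows. The means were 2.29 ± 0.17 and 2.80 ± 0.13 FPKM (SD, n = 3), a ratio of 1.22, and its log2 change, 0.21 ± 0.14 (SE), was not called (limma adjusted p = 0.372). The +1 added before the log understates changes at this level, and with 0.1 added the log2 change was 0.28 (limma adjusted p = 0.365).

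All 6 members passed the filter on low values (at least 1 FPKM in at least 3 of the 6 libraries), and 0 of 6 were called, against 6.71% of all 25474 rows tested (3.16% higher and 3.54% lower in dmd1). No member passed the adjusted p alone, against 13.0% of all rows (7.80% higher and 5.18% lower). At an unadjusted p under 0.05 there were 2 members (limma), both small subunit genes, against 31.3% of all rows. The genotypes did not overlap for 2 of 6 members, OS07G0243200 and OS09G0298200, both higher in dmd1, against 38.4% of all rows in either direction and 25.3% higher in dmd1. These shares are near the background. The median log2 change of the members was 0.19, beside 0.12 for all rows tested.

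**Figure D2:**
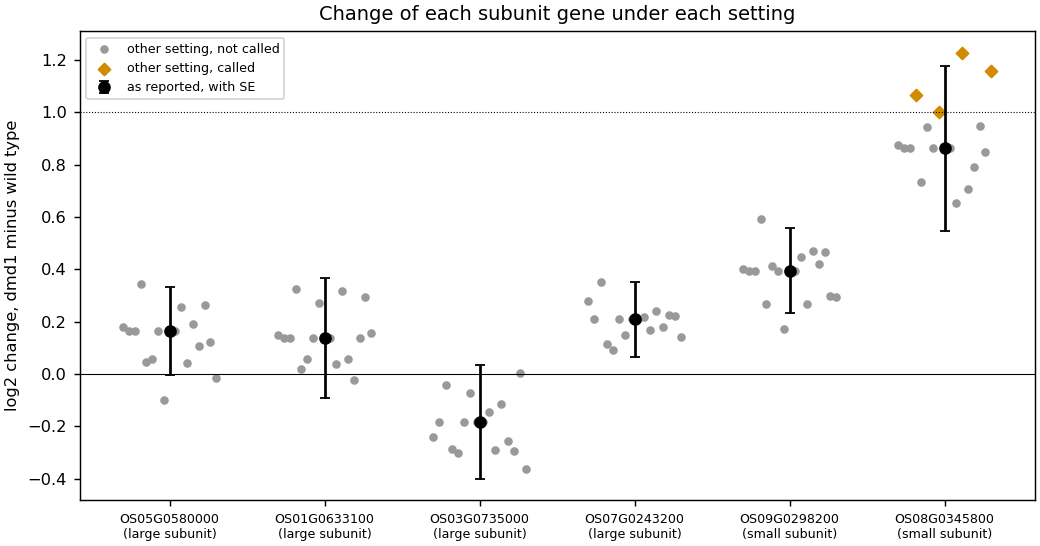
Log2 change (dmd1 minus wild type) of each AGPase subunit gene as reported (black, with SE) and under each other setting of the analysis (grey, or orange where called; the dotted line marks 1 log2 unit). OS08G0345800 is the only member called under any of these settings, in 4 of 17, and its values run from 0.65 to 1.23.

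FPKM is scaled per transcript length, so levels can be compared between the genes. In wild type the order of mean FPKM was OS08G0345800, OS09G0298200, OS01G0633100, OS05G0580000, OS03G0735000 and OS07G0243200. The same order held for the dmd1 means. In wild type the leading pair could not be ordered, because OS08G0345800 exceeded OS09G0298200 in only 1 of 3 libraries, whereas it did so in 3 of 3 dmd1 libraries with no overlap of their ranges. OS01G0633100 and OS05G0580000 overlapped in both genotypes. OS03G0735000 was above OS07G0243200 in all wild-type libraries and overlapped with it in dmd1. The gap between the lower small subunit gene and the higher large subunit gene was clear in both genotypes, with means of 37.4 and 9.60 FPKM in wild type and 49.4 and 10.7 FPKM in dmd1. Among all tested rows, the mean level of OS08G0345800 lay above 91.4% and that of OS09G0298200 above 85.8%, while the large subunit genes lay above 19.2% to 52.6%.

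Because the enzyme needs both kinds of subunit, their summed transcript levels were compared within each library. The ratio of the totals does not depend on how libraries are scaled, but the totals themselves do. The small subunit total was 75.4, 110.8 and 79.5 FPKM in wild-type libraries 1, 2 and 3 and 143.9, 122.3 and 145.5 FPKM in dmd1. The large subunit total was 23.2, 23.7 and 22.8 FPKM in wild type and 29.4, 24.4 and 22.5 FPKM in dmd1. In the values as deposited, the small total was thus higher in every dmd1 library than in any wild-type library, while the large totals overlapped. The ratio of large to small subunit FPKM was 0.307, 0.214 and 0.287 in wild type. In dmd1 it was 0.204, 0.199 and 0.154. The genotypes did not overlap, although wild-type library 2 and dmd1 library 1 were close. The mean log2 ratio was -1.91 ± 0.28 in wild type and -2.44 ± 0.22 in dmd1 (SD, n = 3), a difference of -0.53 (two-sided exact permutation test, p = 0.1, the smallest p that 3 against 3 libraries allow). This test therefore could not reach the 0.05 level with 3 libraries per genotype. The log2 ratio differed by -0.07 between dmd1 library 1 and wild-type library 2, and by -0.94 between dmd1 library 3 and wild-type libraries 1 and 3, so the size of the difference was not the same on the 2 sides of the library split.

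**Figure D3:**
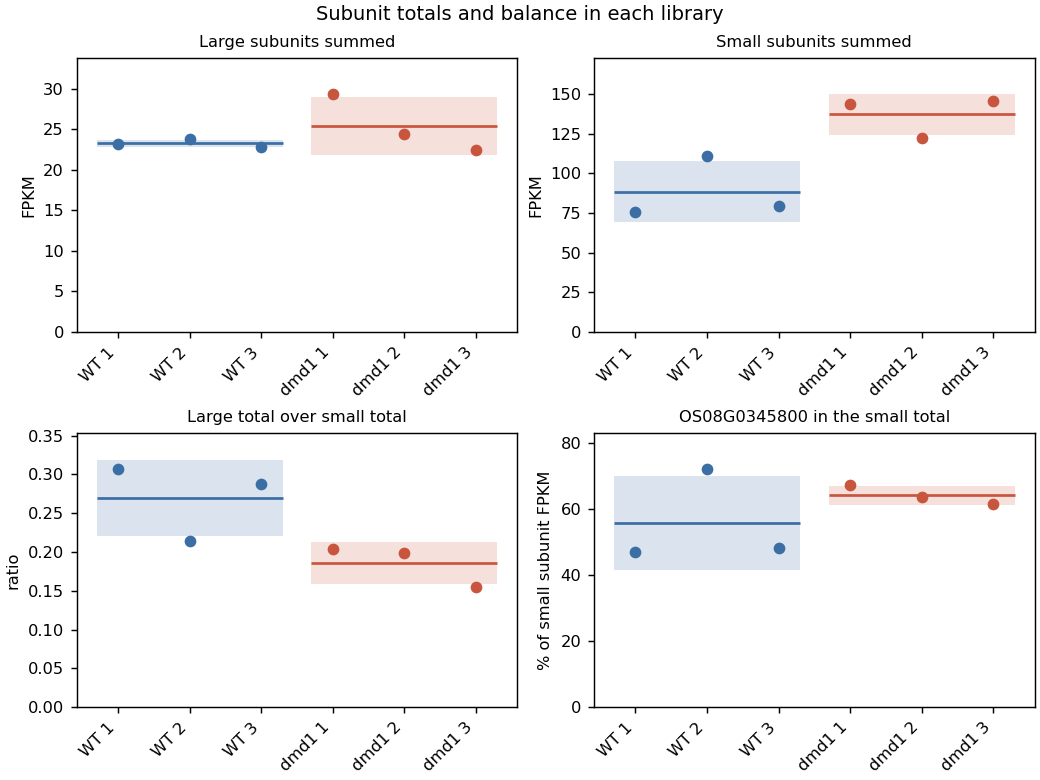
Summed FPKM of the 4 large and the 2 small subunit genes, the ratio of these totals and the percent of the small subunit total held by OS08G0345800, in each library (axes from 0). Points are libraries, lines are genotype means and bands are ± 1 SD over 3 libraries. The small subunit total is higher in all dmd1 libraries, from 122.3 to 145.5 FPKM, than in wild type, where it reaches 110.8 FPKM, and the ratio of totals is lower.

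Within the small subunit total, OS08G0345800 held 47.0%, 72.0% and 48.0% in wild-type libraries 1, 2 and 3 and 67.1%, 63.7% and 61.3% in dmd1. The dmd1 shares were close together and lay between the wild-type extremes. The means were 55.7 ± 14.2% and 64.0 ± 2.92% (SD, n = 3), a difference of 8.33 percentage points that was smaller than the spread in wild type (two-sided exact permutation test, p = 0.4, adjusted p = 0.667 over the 5 shares tested). Without wild-type library 2 the difference was 16.5 points, and without wild-type library 1 or 3 it was 3.99 or 4.50 points. Within the large subunit total, OS01G0633100 held 41.2 ± 9.40% in wild type and 41.7 ± 4.56% in dmd1, and OS05G0580000 held 34.4 ± 6.18% and 35.9 ± 5.86% (SD, n = 3). OS03G0735000 held 14.6 ± 2.62% and 11.4 ± 2.79%, and OS07G0243200 held 9.85 ± 0.91% and 11.1 ± 1.05%. With a smallest possible p of 0.1, the exact permutation test could not call any of these shares, which are therefore given as values, and the genotypes overlapped for all 4 genes. The make-up of the large subunit pool varied more between wild-type libraries than between the genotype means for OS01G0633100, whose share was 35.0%, 52.0% and 36.6% in wild type.

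The members did not vary together as a block. Over the 6 libraries, Pearson's r of log2(FPKM + 1) between pairs of members ran from -0.61 for OS03G0735000 with OS08G0345800 to 0.85 for OS07G0243200 with OS09G0298200. OS05G0580000 and OS09G0298200 had r of 0.81. OS01G0633100 and OS08G0345800, the genes of the endosperm-type enzyme, had r of 0.67, and both were high in wild-type library 2. These are descriptions over 6 libraries that share genotype and the library split. Photosynthesis genes, which mark green tissue, were set beside the members, and a link to OS08G0345800 was not tested. The 12 listed genes, all detected, summed to 428.1, 344.6 and 658.1 FPKM in wild type and to 323.0, 282.3 and 416.7 FPKM in dmd1. Of these, 0 of 12 were called, against 6.71% of all rows tested. At an adjusted p under 0.05 there were 0 of 12, against 13.0%. Their median log2 change was -0.44. RCA, for Rubisco activase, went against the sum, at 32.0 FPKM in dmd1 library 1, where OS08G0345800 was highest, and at 9.16 to 12.7 FPKM in the other libraries. Its log2 change of 0.53 was the only positive value among the 12 and was not called (limma adjusted p = 0.395).

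Among 45 tested genes of starch and sugar metabolism from the lists used, the patterns most like the leading members were taken by Pearson's r over the 6 libraries. For OS08G0345800 these were the starch branching enzyme gene BEIIb (OS02G0528200, r of 0.95) and the debranching enzyme gene ISA3 (OS09G0469400, r of 0.93). Without wild-type library 2 these r were 0.95 and 0.97. For OS01G0633100 they were the hexokinase genes HXK5 (OS05G0532600, r of 0.96) and HXK9 (OS01G0722700, r of 0.90), and without wild-type library 2 they were 0.95 and 0.88. BEIIb had 14.3, 23.0 and 15.2 FPKM in the wild-type libraries and 31.4, 23.2 and 22.3 FPKM in the dmd1 libraries. Among the wild-type libraries, library 2 was the highest for both BEIIb and OS08G0345800. As BEIIb was picked by r over the same libraries, this and the r without that library are not separate evidence of likeness. HXK5 had 10.5, 22.7 and 14.7 FPKM in the wild-type libraries and 25.0, 18.9 and 12.1 FPKM in the dmd1 libraries.

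Genes that act on either side of AGPase were set beside it. Their lists were chosen with earlier results of these data known, so the counts of calls are descriptions. Over all rows tested, 3.16% were called higher and 3.54% lower. Starch synthases, which add glucose from ADP-glucose to the growing chain, gave 2 rises, no falls and 7 genes not called among 9 tested, with a median log2 change of 0.81. SSI (OS06G0160700) rose from 11.4 to 24.1 FPKM (log2 change 1.01 ± 0.14, SE, limma adjusted p = 0.0106) and SSIVa (OS01G0720600) from 4.47 to 12.4 FPKM (1.28 ± 0.21, limma adjusted p = 0.0168). SSIVb (OS05G0533600) and SSIIIb (OS04G0624600) passed the adjusted p alone. SSIVb was higher by 0.92 log2 units (limma adjusted p = 0.0202) and SSIIIb by 0.88 (limma adjusted p = 0.0244). The granule-bound enzyme gene GBSSI was not tested, at 0.13 FPKM or less in every library. The SSI call was lost without wild-type library 1 (log2 change 1.01, limma adjusted p = 0.0514) and fell under the fold minimum without wild-type library 2 (0.97) or dmd1 library 3 (0.90), and under median-of-ratios scaling (0.89), quantile normalization (0.96) and library weights (0.85). For SSIVa the limma adjusted p was 0.0597 when wild-type library 1 was left out, 0.0527 for wild-type library 3 and 0.0613 for dmd1 library 2, so that its call was lost. SSIIIb was called without wild-type library 3 (log2 change 1.00, limma adjusted p = 0.0468). The count of rises was 3 with 0.1 added before the log, where SSIIIb was called (log2 change 1.02), and 4 with equal FPKM totals, where SSIIIb (1.05) and SSIVb (1.11) were called. Over the fits that leave out 1 library, the limma adjusted p ran from 0.0322 to 0.0782 for SSIVb and from 0.0432 to 0.0899 for SSIIIb.

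Genes for branching, debranching and phosphorolysis of starch had a median log2 change of 0.32. Of these, 0 of 11 tested were called, against 6.71% of all rows tested. At the adjusted p alone, which 13.0% of all rows tested passed (7.80% higher in dmd1), 1 of these 11 passed. This was PHO2 (OS01G0851700), a starch phosphorylase gene, at 8.13 FPKM in wild type and 15.7 FPKM in dmd1 (log2 change 0.87 ± 0.16, SE, limma adjusted p = 0.02, and from 0.0376 to 0.0763 with 1 library left out). With equal FPKM totals PHO2 was called (log2 change 1.05, limma adjusted p = 0.0296), which made the count 1. The log2 changes of the next genes by p, BEIIb, ISA2 and DPE1, were 0.54, 0.70 and 0.40 (not called, limma adjusted p = 0.156, 0.115 and 0.149).

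Upstream of AGPase the calls were falls. Among 7 tested genes of hexose phosphate supply and ADP-glucose transport 1 fell, against 3.54% of all rows tested. The median log2 change was 0.13. The gene listed as plastidial phosphoglucose isomerase (OS09G0465600), which interconverts fructose and glucose 6-phosphates, fell from 96.4 to 33.6 FPKM, with wild type at 100.5, 88.5 and 100.2 FPKM and dmd1 at 32.7, 34.6 and 33.4 FPKM (log2 change -1.49 ± 0.12, SE, limma adjusted p = 0.00317). This call held with each library left out (limma adjusted p of 0.0271 or less). GPT1, BT1-2 and cPGM, for a glucose 6-phosphate translocator, an ADP-glucose transporter homologue and cytosolic phosphoglucomutase, moved by -0.23, 0.37 and 0.34 log2 units and did not pass (limma adjusted p = 0.235, 0.176 and 0.223).

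Among 18 tested genes of sucrose cleavage, hexose phosphorylation and UDP-glucose metabolism 5 fell, none rose and 13 were not called. Over all rows tested, 3.54% were called lower and 3.16% higher. The list had a median log2 change of -0.27 and was chosen with earlier results of these data known. The sucrose synthase gene SUS2 (OS06G0194900) fell from 3205 to 340.3 FPKM (log2 change -3.42 ± 0.47, SE, limma adjusted p = 0.0105), and SUS3 (OS07G0616800) from 5.40 to 1.55 FPKM (-1.32 ± 0.23, limma adjusted p = 0.0198). The hexokinase gene HXK7 (OS05G0187100) fell from 1675 to 84.3 FPKM (-4.96 ± 0.91, limma adjusted p = 0.0218). The dmd1 libraries differed widely, at 165.5, 76.7 and 10.6 FPKM for HXK7 and 531.1, 348.1 and 141.7 FPKM for SUS2 in libraries 1, 2 and 3. SUS1 passed the adjusted p alone (log2 change -0.66, limma adjusted p = 0.0296). The other falls, named after their values were seen, were in UGP2 (log2 change -1.10) and HXK3 (-2.00). SUS4, also named after its values were seen, was at 5.71 FPKM in wild type and 10.6 FPKM in dmd1 without overlap, and its log2 change of 0.80 was not called (limma adjusted p = 0.0551). It was called higher with library weights (log2 change 1.10, limma adjusted p = 0.0011). The summed level of the 20 listed genes was 5594 to 5823 FPKM in wild type and 772.6 to 1441 FPKM in dmd1. In wild type most of this sum was SUS2 and HXK7, with means of 3205 and 1675 FPKM. The fall in the sum is therefore mainly that of these 2 genes and does not describe the list as a whole. The fall in the sum of tapetal markers is given above, and its part in these values was not tested. The count of 5 falls became 0 when wild-type library 1 was left out and 2 for wild-type library 2 or 3. It became 1 when dmd1 library 2 was left out and 3 for dmd1 library 1 or 3. Leaving out wild-type library 1 ended the call of all 5 genes, with a limma adjusted p of 0.0509 for SUS2, 0.0775 for SUS3, 0.0768 for HXK7, 0.101 for UGP2 and 0.108 for HXK3. SUS2 was called with any other library left out. For SUS3 the limma adjusted p was also over 0.05 on leaving out wild-type library 3 (0.0722) or libraries 1 or 2 of dmd1 (0.0517 and 0.0585). For HXK7 it was so on leaving out wild-type libraries 2 or 3 (0.0512 and 0.0687) or library 2 of dmd1 (0.0686). Over these fits the limma adjusted p reached 0.112 for UGP2, 0.12 for HXK3 and 0.103 for SUS1. These fits have fewer residual degrees of freedom, and the log2 changes of SUS2 and HXK7 in them ran from -3.84 to -2.89 and from -5.78 to -3.86. With the replicate number as a block the count was 3.

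**Figure D4:**
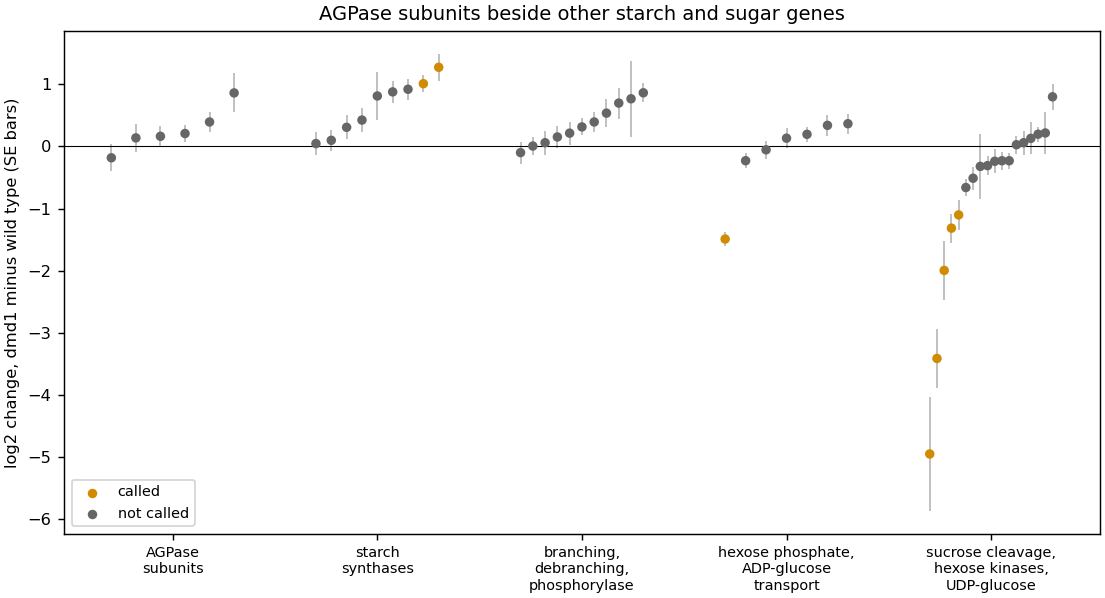
Log2 change (dmd1 minus wild type, with SE) of the AGPase subunit genes and of tested genes in 4 lists of starch and sugar metabolism, sorted within each list. Orange points were called. The AGPase subunits run from -0.18 to 0.86 with none called, the starch synthase list has 2 called rises and the sucrose cleavage list has 5 called falls. Over all rows tested, 3.16% were called higher and 3.54% lower.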

How the data were processed

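RNA-seq of rice anthers gave 1 deposited table of FPKM values made by the authors, with 1 column per library. The submitters' processing notes name fastp, HISAT, RSEM and the build IRGSP-1.0. Tool versions, annotation, strand setting and filters are not stated there. Columns matched library titles, and no 2 libraries were identical. Steps in low values gave approximate relative depths of 0.857 to 1.28 against wild-type library 1; absolute depth is unknown, so no counting interval is given.

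Rows with at least 1 FPKM in at least 3 of 6 libraries (25474 rows) were transformed to log2(FPKM + 1) and fitted with limma 3.58.1 in R 4.3.3 (trend and robust options), with Benjamini-Hochberg adjustment over all rows. The code was tested on simulated data. Ratios and shares were compared by two-sided exact permutation tests. Members and gene lists were chosen with earlier results of these data known. Named genes are all members, up to 4 tested genes with the smallest p per metabolic list, and for the most abundant large and small subunit gene the 2 listed genes with the highest r. List identifiers were written from general knowledge and were not checked against an annotation. Replicate numbers were not taken to pair libraries. P-values measure the spread between these libraries. In limma the variance of each row is also drawn towards that of rows of like level.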

Additional observations from a re-analysis of the deposited data

How the results depend on the processing

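In the 17 other fits no tested member was called except OS08G0345800 (6 members tested, but 4 with a mean FPKM of at least 5), which made the count 1 with equal FPKM totals, with library weights (log2 change 1.00, limma adjusted p = 0.00345) and without wild-type library 2 and dmd1 library 1 together. Over the fits without 1 library the count ran from 0 to 1. Library weights stopped before convergence and gave 9.13 to dmd1 library 2 against 0.244 to wild-type library 2. Over all 17 fits the log2 change of OS08G0345800 ran from 0.65 to 1.23, that of OS09G0298200 from 0.17 to 0.59, and that of OS07G0243200, in 16 fits, from 0.09 to 0.35. Signs of small changes turned, and the cause was not tested. OS05G0580000 was at -0.10 with library weights and at -0.015 without the 2 libraries named above. Leaving out 1 library, the log2 change ran from -0.021 to 0.32 for OS01G0633100, from -0.29 to 0.0040 for OS03G0735000 (-0.36 without both libraries), from 0.04 to 0.26 for OS05G0580000, from -0.032 to 0.49 for HXK5 and from -0.034 to 0.12 for HXK9, and HXK9 was at -0.084 with median-of-ratios scaling and at -0.088 with quantile normalization. The difference in percent of the large subunit total ran from -1.95 to 4.04 for OS05G0580000 (-0.74 without the 2 libraries) and from -2.64 to 5.86 for OS01G0633100, and that of OS08G0345800 in the small subunit total from 3.99 to 16.5, while the log2 ratio of large to small totals ran from -0.69 to -0.40. Same-numbered libraries deviated from their genotype means with r of -0.35, -0.01 and 0.35. With 3 libraries per genotype these r cannot settle whether the numbers pair libraries, and the labels give no such tie. With a replicate block 0 members were called, and OS08G0345800 had an adjusted p of 0.169. The block moved the calls over all rows from 1709 to 1395. With 3 libraries per genotype the exact permutation tests cannot go below 0.1.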
